A study of Mus musculus with 96 samples.

Results

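The let-7 family was followed in mouse cortex through 10 autosomal stem-loops, the hairpin precursors from which mature microRNAs are cut, out of 1187 stem-loops in the counts table. The members were chosen by their miRBase stem-loop accession: let-7a-1 (MI0000556), let-7a-2 (MI0000557), let-7b (MI0000558), let-7c-1 (MI0000559), let-7c-2 (MI0000560), let-7d (MI0000405), let-7e (MI0000561), let-7f-1 (MI0000562), let-7g (MI0000137) and let-7i (MI0000138). The rule uses no measured value. The tables carry accessions only, so the pairing with names was checked through hairpin length. The length that the FPKM values (fragments per kilobase of hairpin, scaled to library size) imply was equal to the RefSeq hairpin length for all 10 members.

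The study sequenced cortical small RNA of 96 mice, which fall into 12 groups of 8 with 4 females and 4 males in each. The groups were heterozygous Htt knock-in mice with 50, 92 or 140 CAG repeats (Q50, Q92, Q140), knock-in mice with 20 repeats (Q20), and wild-type (WT) littermates, kept as separate groups for the Q20 and Q50 lines. Each of these was sampled at the ages of 6 and 10 months. All mice were C57BL/6, and every knock-in mouse kept 1 WT Htt allele beside an allele carrying human HTT exon 1. WT and Q20 mice served as controls for Q50, Q92 and Q140. Q92 and Q140 had no WT littermates among these libraries, so line and genotype cannot be told apart for them. Different mice were used at each age.

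Let-7 microRNAs are among the most conserved small RNAs of animals. A mature let-7 strand loaded into an Argonaute protein pairs through its seed, bases 2 to 8, with sites in messenger RNAs and lowers their translation and stability. The family is known for timing developmental transitions and for its abundance in differentiated tissue such as adult brain, while the protein Lin28 blocks its maturation in stem cells. Some members are made by more than one locus, and the loci of one cluster can be cut from a shared primary transcript.

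The 5′ mature strands below show how close the members are to each other, which matters for how reads can be assigned. They were taken from RefSeq (GRCm38.p6), with the seed in capitals.

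let-7a-5p: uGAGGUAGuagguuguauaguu

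let-7b-5p: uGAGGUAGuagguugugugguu

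let-7c-5p: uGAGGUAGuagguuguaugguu

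let-7d-5p: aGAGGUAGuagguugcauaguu

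let-7e-5p: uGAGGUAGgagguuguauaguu

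let-7f-5p: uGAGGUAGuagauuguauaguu

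let-7g-5p: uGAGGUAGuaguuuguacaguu

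let-7i-5p: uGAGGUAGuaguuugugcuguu

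All 8 distinct strands carried the same seed. Counted from 1 at the 5′ end, let-7c differed from let-7a by A19G alone, let-7e by U9G and let-7f by G12A. Let-7b differed from let-7a at 2 positions (A17G and A19G), let-7d at 2 (U1A and U16C), let-7g at 2 (G12U and U18C) and let-7i at 4 (G12U, A17G, U18C and A19U). The let-7a strand was found in the hairpins of let-7a-1 and let-7a-2, and the let-7c strand in those of let-7c-1 and let-7c-2. A read of such a strand cannot be placed on one locus. The 3′ strands of let-7a-1 and let-7c-2 are also identical in RefSeq, and RefSeq lists the let-7f 5′ strand at a further locus, Mirlet7f-2, which was not analysed here.

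The hairpins of let-7f-1, let-7c-1 and let-7c-2 are given because the largest differences between libraries lay in these 3 members. Capitals mark the 5′ mature strand.

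let-7f-1: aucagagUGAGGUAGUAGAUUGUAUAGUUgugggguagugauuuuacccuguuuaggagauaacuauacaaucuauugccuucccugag

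let-7c-1: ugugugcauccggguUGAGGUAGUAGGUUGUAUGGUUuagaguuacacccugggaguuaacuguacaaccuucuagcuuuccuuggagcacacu

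let-7c-2: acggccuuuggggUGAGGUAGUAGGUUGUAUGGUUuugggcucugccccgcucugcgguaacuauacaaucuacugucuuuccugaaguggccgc

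The members lie at 7 places in the genome (GRCm38.p6). Let-7a-1 (chr13:48538179-48538272), let-7f-1 (chr13:48537829-48537917) and let-7d (chr13:48536012-48536114) stand within 2261 bases on the minus strand, in an exon of the long noncoding RNA gene 6720427I07Rik by the GENCODE annotation. Let-7c-2 (chr15:85706603-85706697) and let-7b (chr15:85707319-85707403) stand within 801 bases on the plus strand, in an exon of the noncoding transcript Lncppara. Let-7c-1 (chr16:77599657-77599750) lies in an intron of Mir99ahg, a noncoding host gene, and let-7a-2 (chr9:41536716-41536811) in an intron of 3110039I08Rik, likewise noncoding. Let-7g (chr9:106178840-106178927) lies in an intron of Wdr82, which codes for a WD-repeat protein of a histone methyltransferase complex, and let-7e (chr17:17830352-17830444) in an intron of Spaca6, a gene needed in sperm for fertilisation. Let-7i (chr10:122985640-122985724) lies in an exon of D630033A02Rik, annotated as a transcribed pseudogene.

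Between 3698376 and 12142170 counts were available per library at 10 months, and between 4797428 and 7651621 at 6 months. The lowest count of any member in any library was 163.9. The deposited counts are estimates and not always whole. They were fractional in all 96 libraries for let-7a-2, let-7c-1, let-7c-2, let-7f-1, let-7g and let-7i, and in 56 for let-7d. The sources do not say how a read that matches several loci was split among them. A connectivity screen like that of the study left out 10 libraries and kept 86 for the fits. Names could not be matched to the other stem-loops, so cortical and other cell type markers were not checked.

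Some libraries stood apart in a way that the groups do not explain. The description of each library ends in an LB number, from 1 to 36, whose meaning the labels do not give. In the 11 libraries with LB number 1, 15, 26 or 27, let-7f-1 lay between 31.2 and 74.7 CPM (the count relative to the library total, after scaling by the trimmed mean of M-values, TMM), with a median of 47.6. In the other 85 libraries it lay between 607.1 and 940.1 CPM, with a median of 750.1. The 2 sets did not overlap. The split was noticed from let-7f-1 itself, so its size is a description. At 10 months all 5 libraries with these numbers were under 100 CPM and 0 of the 43 others were, which is part of the same description.

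The let-7c loci differed in opposite directions in the same libraries. Let-7c-2 lay between 3558 and 6286 CPM (median 5493) in the 11 libraries and between 6760 and 10566 CPM (median 8104) in the other 85. Let-7c-1 lay between 4528 and 8054 CPM (median 6168) in the 11 libraries and between 2750 and 5069 CPM (median 3527) in the 85. Let-7c-2 was thus lower without overlap, and let-7c-1 higher with a small overlap. The sum of both loci, which make the same mature strand, was 10068 to 13547 CPM (median 11585) in the 11 libraries and 9847 to 15635 CPM (median 11666) in the 85, so the sums of both sets overlapped widely.

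**Figure D1:**
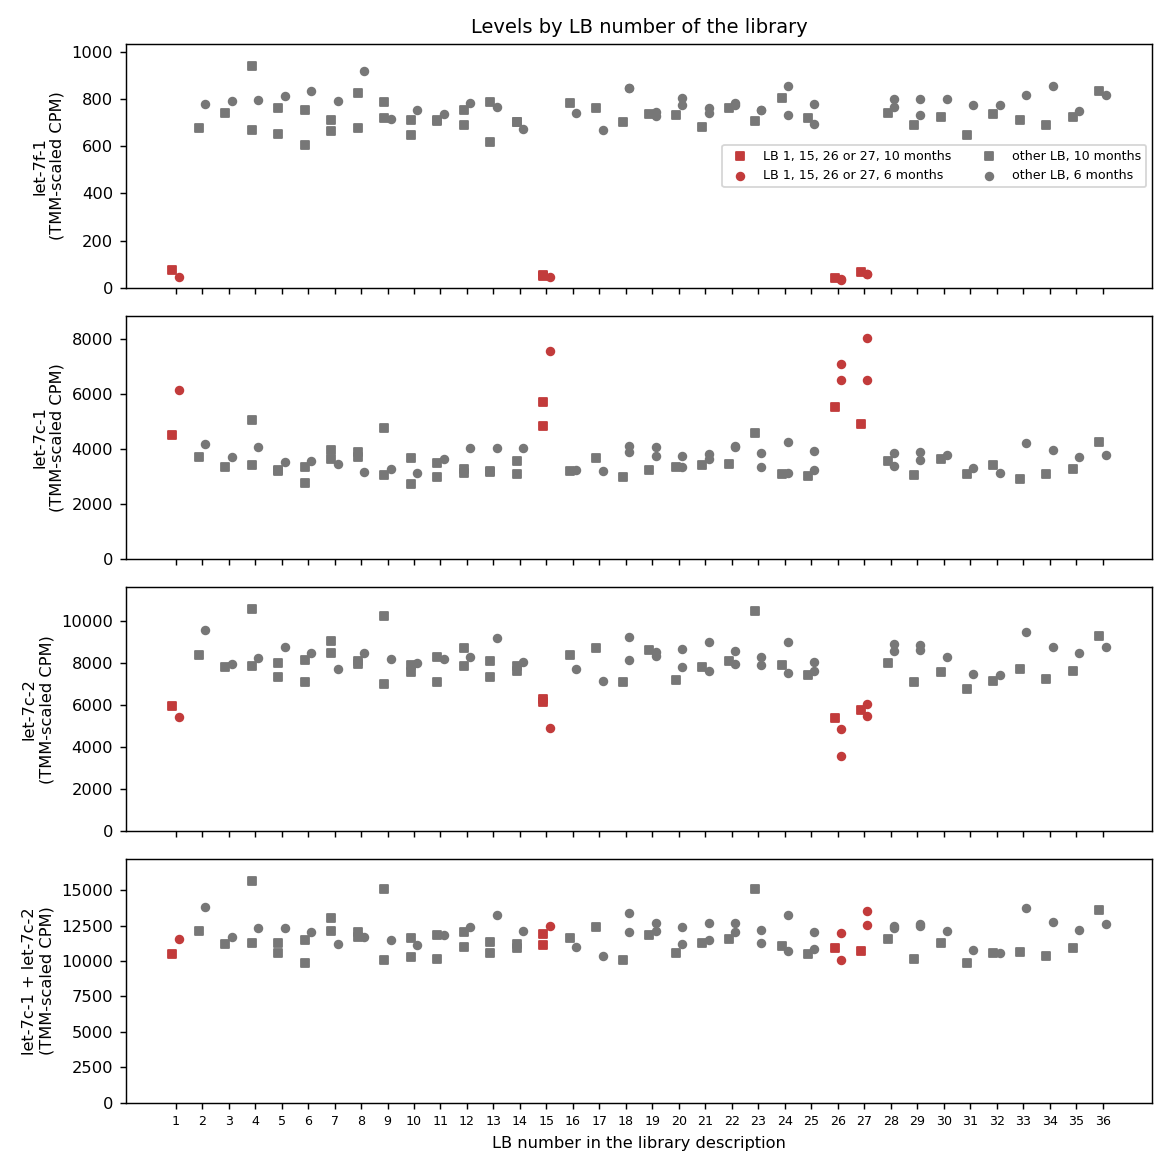
TMM-scaled CPM (vertical axes, from 0) of let-7f-1, let-7c-1, let-7c-2 and the sum of the let-7c loci against the LB number of the library (horizontal axis); each point is 1 of 96 libraries, squares at 10 months and circles at 6 months. In red, the 11 libraries with LB number 1, 15, 26 or 27 lie between 31.2 and 74.7 CPM for let-7f-1, below all others, while the summed let-7c loci overlap widely.

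Let-7a-1 and let-7e separated these libraries among themselves. In the 8 libraries with LB number 1, 15 or 26, let-7a-1 lay between 5831 and 7357 CPM and let-7e between 1413 and 1693 CPM. In the 85 others, let-7a-1 lay between 7536 and 12145 CPM and let-7e between 1958 and 2800 CPM. The 3 libraries with LB number 27 had 8033, 9705 and 10358 CPM of let-7a-1 and 1983, 2425 and 2513 CPM of let-7e, within the range of the 85. Let-7a-2 lay between 538 and 871 CPM in the 8 libraries and between 790 and 1401 CPM in the 85. The sum of let-7a-1 and let-7a-2, unlike that of the let-7c loci, did not overlap. It was 6414 to 7963 CPM in the 8 libraries and 8451 to 13546 CPM in the 85. How many of all stem-loops separate the 8 from the 85 is not given here. The 8 were also told from LB number 27 by these members' own levels. Their separation is thus a description and is not read as particular to let-7. Let-7b, let-7d, let-7g and let-7i in the 11 libraries overlapped widely with the rest. Let-7g, for example, lay between 6290 and 8999 CPM in the 11 and between 5682 and 9628 CPM in the 85.

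The split of the 11 from the 85 libraries was rare among stem-loops. Of 219 stem-loops with a mean of at least 100 CPM, 3 did not overlap between the 11 and the 85 libraries: let-7f-1, let-7c-2 and MI0001163, with 2565 to 6181 CPM against 7243 to 12230 CPM. The 11 libraries came from 8 of the 12 groups, 5 at 10 months and 6 at 6 months, and 4 of them were already left out by the screen. At 6 months 0 of the kept ones were Q50, Q92 or Q140 and 3 were controls, and at 10 months 1 was Q140 and 3 were controls. They therefore weighed on one side of the 6-month comparisons, and the main results are given with and without them. Values without them rest on a choice made from the members' own levels.

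Across all 96 libraries the members summed to between 3.63% and 5.58% of the counts, with a median of 4.52%. The group means of this share ran from 4.31% (Q50 at 10 months) to 4.70% (Q92 at 10 months), with SDs within groups from 0.195 to 0.539 percentage points (n = 8 each), so that the groups overlapped. Levels of members against each other are given in FPKM, which corrects for hairpin length. Let-7a-1 stood highest, at 98018 ± 11800 FPKM (SD, n = 96), and above let-7g in 88 of 96 libraries. Let-7g (87324 ± 8268 FPKM) and let-7c-2 (82769 ± 11741 FPKM) changed order between libraries, with let-7g the higher in 58. Let-7c-2 was above let-7i (77840 ± 4807 FPKM) in 79 libraries.

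A second tier followed. Let-7i was above let-7c-1 (41054 ± 10116 FPKM) in all 96 libraries, and let-7c-1 was above let-7b (32844 ± 1958 FPKM) in 95. Let-7b and let-7d (32097 ± 2213 FPKM) changed order between libraries as well, with let-7b the higher in 63. Let-7e (24009 ± 2708 FPKM), let-7a-2 (10356 ± 1492 FPKM) and let-7f-1 (7524 ± 2580 FPKM) came last, and each step from let-7d down to let-7f-1 had the same direction in all 96 libraries. The levels of paired loci such as let-7a-1 and let-7a-2 depend on how shared reads were divided. The order by median was the same as by mean, and no difference between members was tested.

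**Figure D2:**
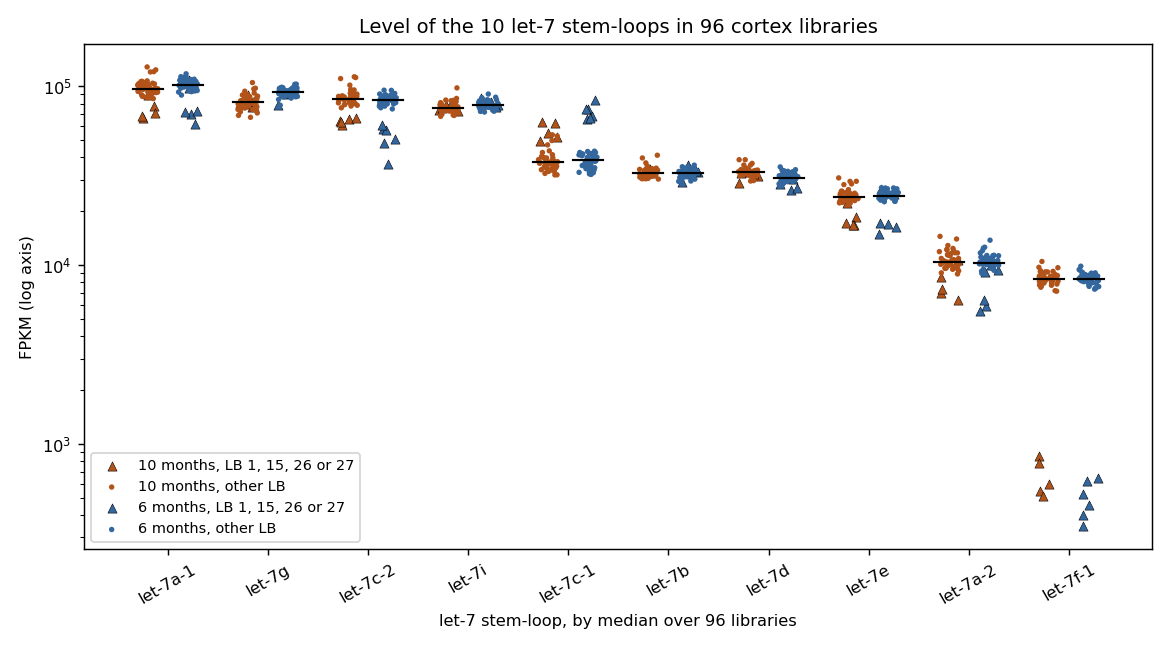
FPKM (vertical log axis) of the 10 let-7 stem-loops, ordered by median, in 96 cortex libraries; orange points are 10 months and blue points 6 months, black lines are medians, and triangles are libraries with LB number 1, 15, 26 or 27. Medians over all libraries run from 99081 FPKM for let-7a-1 to 8321 FPKM for let-7f-1.

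The spread of single members between libraries was described with and without the 11. The coefficient of variation of CPM over all 96 libraries ran from 7.22% (let-7d) to 34.5% (let-7f-1). Over the 85 it ran from 6.87% (let-7d) to 12.8% (let-7g), and that of let-7f-1 was 8.20%. The fall for let-7f-1 follows from the choice, as the 11 were set apart by its level. For let-7g, let-7i and let-7b the coefficient did not fall (12.7% to 12.8%, 8.55% to 8.73% and 7.77% to 7.89%). Members also moved together. With group means removed, the 45 pairs of members had a median Pearson r of 0.69 over the 79 kept libraries outside the 11, from 0.15 (let-7c-1 with let-7f-1) to 0.92 (let-7a-1 with let-7e). Let-7b and let-7c-2, which share a cluster, had r = 0.91, but let-7f-1 and let-7a-1, which also share one, had r = 0.35. With all 86 kept libraries let-7c-1 and let-7f-1 had r = -0.79 and let-7c-1 and let-7c-2 r = -0.37. These values describe libraries that share a depth scaling and reads divided between near-identical strands, and no test was made.

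Across the 12 groups, outside the 11 libraries and among those kept, the span of the group means differed between members. For 8 of 10 members the lowest group mean was that of Q50 at 10 months. Let-7c-2, for example, had 7462 ± 301 CPM there (SD, n = 7) and 8663 ± 361 CPM in Q92 at 6 months (n = 7), its highest group. Let-7b had 2557 ± 102 CPM in Q50 at 10 months and 2932 ± 99.6 CPM in Q92 at 6 months (n = 7 each). Let-7g and let-7i were lowest in Q140 at 10 months, with 6539 ± 784 and 5846 ± 457 CPM (n = 7). Let-7g was highest in Q92 at 6 months, with 8699 ± 293 CPM (n = 7), and let-7i in WT of the Q20 line at 6 months, with 7130 ± 593 CPM (n = 6). Let-7d moved least, with 3225 ± 220 CPM in Q50 at 10 months (n = 7) and 3405 ± 214 CPM in WT of the Q20 line at 10 months (n = 6), a difference smaller than the spread within either group. For the 9 members other than let-7d the highest group mean fell at 6 months. These extremes were picked from 12 groups and carry no test.

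Among 209 other stem-loops with a mean of at least 100 CPM, those most like the summed members over the 86 kept libraries, group means removed, were MI0000563 (r = 0.76), MI0000586 (r = 0.76) and MI0000155 (r = 0.50). The names of these stem-loops were not resolved. Outside the 11 libraries their r was 0.87, 0.78 and 0.55 (n = 79). A set of 8 co-varying stem-loops that led the first component of variation, none of them one of the 10 members, correlated with the summed members at r = -0.03. Single members went both ways with this set, from r = -0.26 (let-7c-1) to 0.26 (let-7f-1) over the 86 libraries.

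The first question was whether let-7 levels differ in cortex with an expanded CAG repeat. At 6 months none of the 10 members passed the test in Q50, Q92 or Q140 against controls (edgeR quasi-likelihood test, false discovery rate, FDR, of 0.05 over all stem-loops). In the same fits 0% of 447 stem-loops passed in Q50, 12.1% of 439 in Q92 and 1.8% of 445 in Q140. At an unadjusted p under 0.05 the members numbered 0 of 10 in each genotype, against 12.5%, 24.4% and 20% of all stem-loops. DESeq2 also called 0 of 10 in each. The median log2 difference of the members was 0.02 in Q50, 0.03 in Q92 and 0.03 in Q140, beside -0.01, 0.00 and 0.02 over all stem-loops tested.

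At 6 months the largest differences were those of the members that the LB numbers separate. Let-7f-1 had log2 differences of 0.20 ± 0.41 (SE) in Q50, 0.15 ± 0.41 in Q92 and 0.17 ± 0.38 in Q140. Let-7c-1 had -0.15 ± 0.15 in Q50, -0.16 ± 0.15 in Q92 and -0.12 ± 0.14 in Q140. In Q140 the 8 libraries ran from 674.2 to 857.9 CPM of let-7f-1 (median 757.7), against 46.3 to 812.9 CPM in Q20 (median 783.5, n = 8), 56.4 to 857.9 CPM in WT of the Q20 line (median 738.5, n = 7) and 60.0 to 845.3 CPM in WT of the Q50 line (median 783.4, n = 6). Each control group thus held 1 low library, and the rest overlapped with Q140.

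Without the 11 libraries both differences changed sign. Let-7f-1 then had -0.02 ± 0.04 in Q50, -0.03 ± 0.04 in Q92 and -0.05 ± 0.04 in Q140. Let-7c-1 had 0.02 ± 0.06, 0.02 ± 0.06 and 0.03 ± 0.06. The standard errors were far smaller without these libraries. That follows in part from the choice, as the libraries were set apart by let-7f-1 itself and also differed in let-7c-1. The intervals below depend on the same choice. None of the 10 members passed in any of the 3 genotypes, and their 95% intervals lay within -0.12 and 0.15 in Q50 (25 libraries), -0.11 and 0.18 in Q92 (25 libraries) and -0.12 and 0.15 in Q140 (26 libraries). At an unadjusted p under 0.05 there was then 1 of 10 members in Q92, let-7c-2 with 0.10 ± 0.04 (edgeR, FDR 0.11), against 25.9% of 436 stem-loops, and 0 in Q50 and Q140.

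At 10 months none of the 10 members passed in Q50, Q92 or Q140 either. Over all stem-loops 0% of 472 passed in Q50, 0% of 458 in Q92 and 0.662% of 453 in Q140. At an unadjusted p under 0.05 there were 2 of 10 members in Q50, 0 in Q92 and 1 in Q140, against 6.57%, 8.73% and 8.17% of all stem-loops, and DESeq2 called 0 of 10 in each. The members' median difference was -0.11 in Q50, 0.12 in Q92 and -0.04 in Q140, beside -0.01, 0.00 and 0.00 over all stem-loops. In Q92, where 5 of 8 libraries were kept (1 female and 4 males, with sex a term of the fit), all 10 members had positive values, from 0.04 (let-7d) to 0.33 ± 0.46 (let-7f-1), and in Q50 9 of 10 had negative ones.

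Let-7i came closest to a call at this age. It had 5393 to 6729 CPM in Q140 (median 5890, n = 8), against 6105 to 8152 CPM in Q20 (median 6420, n = 8), 5962 to 6787 CPM in WT of the Q20 line (median 6311, n = 8) and 5995 to 6595 CPM in WT of the Q50 line (median 6391, n = 7). Q140 overlapped with every control group. Its log2 difference in Q140 was -0.11 ± 0.05 (edgeR, FDR 0.41), and -0.13 ± 0.05 without the 11 libraries (FDR 0.22). In Q50, let-7i had -0.12 ± 0.05 (FDR 0.62) and let-7b -0.12 ± 0.06 (FDR 0.67). None of these passed the test.

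Without the 11 libraries the 95% intervals of single members at 10 months lay within -0.35 and 0.08 in Q50 (27 libraries), -0.07 and 0.38 in Q92 (25 libraries) and -0.23 and 0.15 in Q140 (27 libraries). None passed. In Q50 all 10 members then had negative values, and 5 of 10 had an unadjusted p under 0.05 (let-7a-1, let-7a-2, let-7b, let-7c-2 and let-7i), against 7.71% of 467 stem-loops. The largest of these was let-7a-2 with -0.18 ± 0.08, and the lowest FDR of any member in Q50 was 0.57. The kept libraries left out here were 3 controls and 1 Q140. Among these 5 members, leaving out the controls raised the means of let-7a-1, let-7a-2, let-7b and let-7c-2 in Q20 and in WT of the Q20 line. The mean of let-7i rose in Q20 (6645 to 6696 CPM) and fell in WT of the Q20 line (6313 to 6295 CPM). Members also moved together, so the 5 are not independent, and their number was not tested against the share of all stem-loops. In Q92 all 10 were positive, with let-7f-1 at 0.11 ± 0.06, and 1 had an unadjusted p under 0.05, against 8.55% of 456: let-7c-1, with 0.20 ± 0.08 (edgeR, FDR 0.51). In Q140 1 member did, let-7i. Leaving out each kept Q50, Q92 or Q140 library in turn, at either age, gave 0 calls among the members in all 42 fits. Within single values of the L field of the descriptions, taken as the batch, 8 fits were possible and called 0 members.

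**Figure D3:**
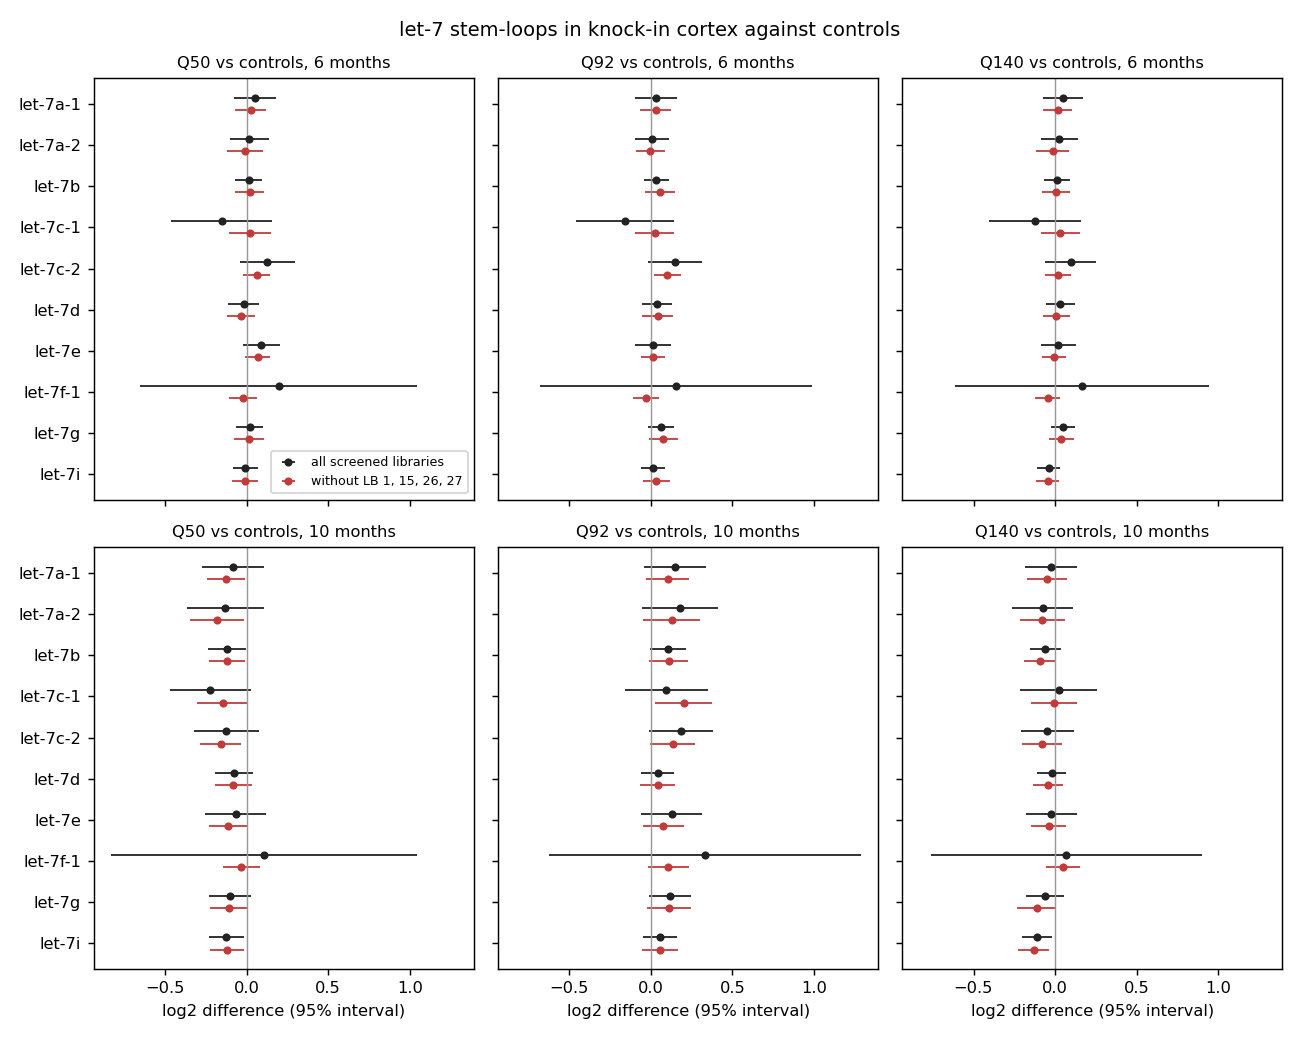
Log2 difference from controls (horizontal axis) of each let-7 stem-loop in Q50, Q92 and Q140 cortex at 6 months (top) and 10 months (bottom); points are edgeR estimates and bars 95% intervals, in black over the screened libraries and in red without LB numbers 1, 15, 26 and 27. The bar of let-7f-1 in Q140 at 6 months spans -0.61 to 0.94 in black and -0.12 to 0.03 in red.

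CAG length was also fitted as a number, with 7 repeats for WT and slopes per 100 repeats. None of the 10 members passed at 6 months (14% of 444 stem-loops did), at 10 months (0.828% of 483) or with both ages combined by the sum of signed Z values (2.93% of 443). Unadjusted p under 0.05 was reached by 0, 1 and 1 members, against 24.8%, 7.04% and 20.1% of all stem-loops, and DESeq2 called 0 in each. Let-7i was the member at both places, with a slope of -0.07 ± 0.03 at 10 months (FDR 0.49) and -0.05 ± 0.02 over both ages (combined FDR 0.19). Its combined slope took the other sign when Q140 was left out. The members' median slope was 0.02 at 6 months and -0.01 at 10 months, beside 0.01 and 0.00 over all stem-loops. Without the 11 libraries the 95% intervals of the members' slopes lay within -0.09 and 0.10 at 6 months and within -0.15 and 0.14 at 10 months.

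The difference between the slopes of both ages was tested as an interaction over 86 libraries. None of the 10 members passed, against 1.08% of 464 stem-loops, and 0 had an unadjusted p under 0.05, against 18.5%. DESeq2 called 0. The values ran from -0.11 (let-7c-2) to 0.13 (let-7c-1), and let-7g had -0.08 ± 0.05 (FDR 0.34). Let-7c-2 without the 11 libraries had -0.08 ± 0.05 and let-7c-1 -0.0033 ± 0.07, and let-7g had -0.11 ± 0.05 (edgeR, FDR 0.27). Let-7g was then the 1 member with an unadjusted p under 0.05, against 17.9% of 463 stem-loops.

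Comparisons within lines addressed whether a short repeat or the line itself goes with let-7 levels. In Q20 against WT littermates, both ages together, none of the 10 passed (0% of 464 stem-loops did), 0 had an unadjusted p under 0.05 (8.41%), and the values ran from -0.05 (let-7c-1) to 0.15 (let-7f-1). Outside the 11 libraries let-7f-1 had 0.05 ± 0.04. In Q50 against WT littermates none passed (0% of 449), and let-7c-1 had an unadjusted p under 0.05 (4.68%), with -0.20 ± 0.07 (FDR 0.83). Without the 11 libraries 3 of 10 had one (5.37% of 447 stem-loops): let-7c-1 with -0.12 ± 0.05, let-7a-1 with -0.08 ± 0.04 and let-7g with -0.08 ± 0.04, each at an FDR of 0.79 by edgeR. In WT of the Q50 line against WT of the Q20 line none passed (0.451% of 443), 0 had an unadjusted p under 0.05 (10.8%), and let-7f-1 had the highest value, 0.28 ± 0.42. When the 11 were left out it had 0.07 ± 0.05, and let-7c-1 was highest with 0.09 ± 0.05. DESeq2 called 0 members in each of these.

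Sex was balanced within groups over the 96 libraries but not in every group after the screen, with 1 female and 4 males kept in Q92 at 10 months and 2 females and 4 males in WT of the Q50 line at 6 months. In males against females none of the 10 members passed (1.25% of 481 stem-loops did), 0 had an unadjusted p under 0.05 (13.1%), and DESeq2 called 0. Without the 11 libraries the members' log2 differences ran from -0.04 (let-7a-2) to 0.01 (let-7g), with 95% intervals within -0.10 and 0.06 over 79 libraries.

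Age was the comparison in which members passed. In the control groups at 10 against 6 months, 2 of 10 members passed and both fell: let-7g and let-7i. Over all stem-loops 32.9% of 453 passed, 17.2% lower at 10 months, so 2 of 10 is near the background. The same 2 members had an unadjusted p under 0.05, against 40% of all stem-loops. Let-7g had 6152 to 8402 CPM at 10 months (median 7020, n = 23), against 6944 to 9624 CPM at 6 months (median 8262, n = 21). Of the 10-month libraries 8 lay below every 6-month one, and the rest overlapped. Its log2 difference was -0.18 ± 0.05 (FDR 0.0018).

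Let-7i, which differs from let-7g by 2 bases in the 5′ strands printed above, had 5962 to 8152 CPM at 10 months (median 6391, n = 23), against 6191 to 7688 CPM at 6 months (median 6851, n = 21). The ranges overlapped, and 7 libraries at 10 months lay below every one at 6 months. Its log2 difference was -0.11 ± 0.04 (FDR 0.020). This call was lost without the 11 libraries (-0.10 ± 0.04, FDR 0.082), while let-7g passed there (-0.15 ± 0.05, FDR 0.011). The other 8 members did not pass, with values from -0.15 ± 0.43 (let-7f-1, -0.07 ± 0.04 without the 11) to 0.04 ± 0.09 (let-7c-2). DESeq2 called the same number, 2 of 10, and its share over all stem-loops is not given here.

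The same comparison was then made in Q50, Q92 and Q140 mice, in libraries that the control comparison did not use. It was added after the control values were known. There 3 of 10 members passed, all lower at 10 months, against 36.7% of 466 stem-loops in either direction and 17.2% lower. An unadjusted p under 0.05 was reached by 5 of 10 members and 47% of all stem-loops, and without the 11 libraries by 4 of 10 and 46.7% of 465. Let-7g had 5682 to 8915 CPM at 10 months (median 6752, n = 20), against 7641 to 9628 CPM at 6 months (median 8679, n = 22), a log2 difference of -0.23 ± 0.05 (FDR 0.00027). Let-7i had 5393 to 7023 CPM at 10 months (median 5994), against 6417 to 7668 CPM at 6 months (median 6989), a difference of -0.14 ± 0.04 (FDR 0.0012). For both, 16 of 20 libraries at 10 months lay below every one at 6 months.

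Let-7a-1 was the third, with -0.14 ± 0.05 (FDR 0.031). It had 7206 to 11215 CPM at 10 months (median 8692) and 8981 to 11194 CPM at 6 months (median 10054), and it did not pass without the 11 libraries (-0.12 ± 0.05, FDR 0.052). In controls it had -0.13 ± 0.07 (FDR 0.20). DESeq2 called 5 of 10 members in these mice, and its share over all stem-loops is not given here. The mean of let-7g was lower at 10 months in all 6 genotype and line groups, without overlap in 2 of them, and the same held for let-7i. How many of all stem-loops did so is not given either, so these counts are not read as particular to let-7.

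The values of the L field were not spread alike over the ages. Of the kept libraries, 2 at 10 months and 24 at 6 months had L field value 1, 25 and 19 had value 2, and 16 and 0 had value 3. Within value 2, let-7g had -0.18 ± 0.05 in controls (FDR 0.011, 25 libraries) and -0.24 ± 0.06 in Q50, Q92 and Q140 (FDR 0.0023, 19 libraries). Let-7i had -0.12 ± 0.04 (FDR 0.049) and -0.15 ± 0.04 (FDR 0.0033) in the same fits. The mice of each age may have been prepared separately, and age and preparation cannot be told apart. In bulk tissue, fewer cells of a type and less RNA per cell cannot be told apart either.

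**Figure D4:**
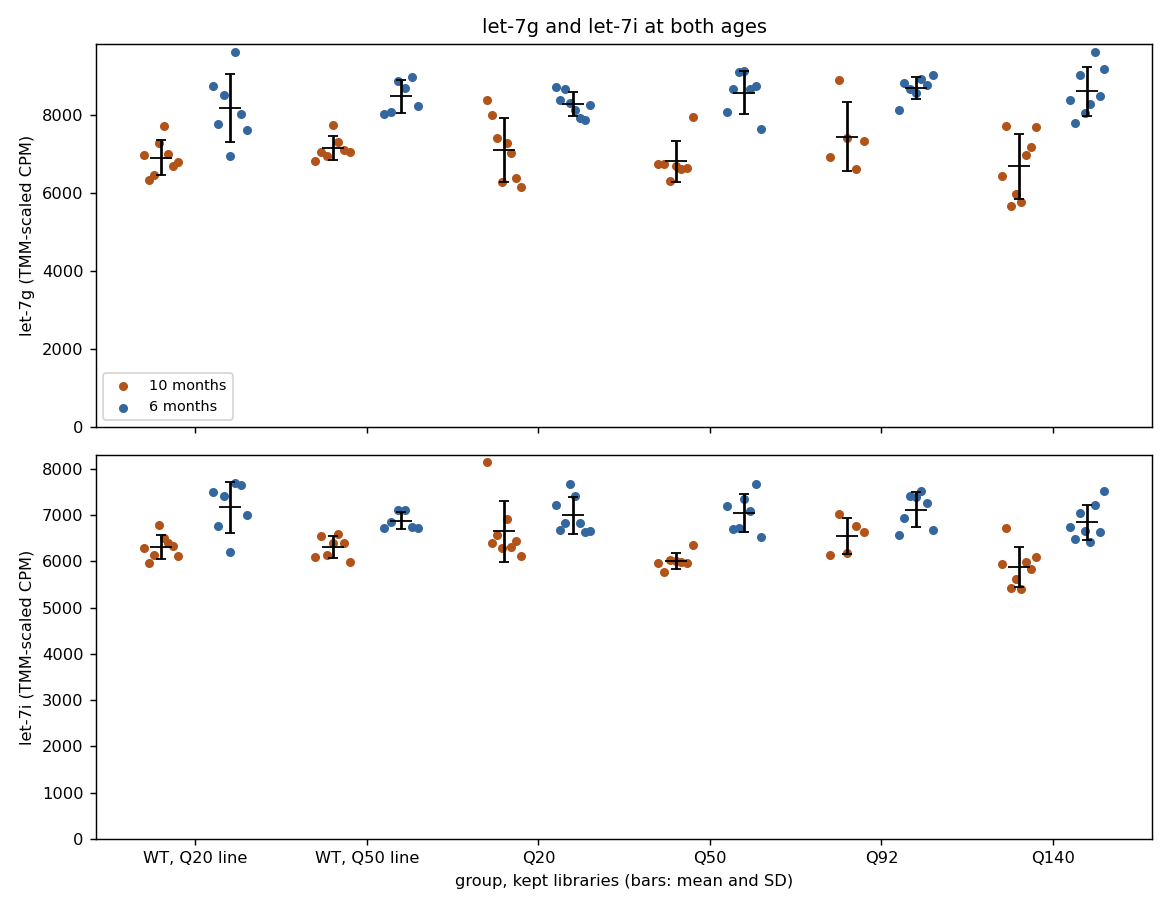
TMM-scaled CPM (vertical axes, from 0) of let-7g and let-7i in the 6 genotype and line groups (horizontal axis), 10 months in orange left of 6 months in blue; points are kept libraries and bars the mean and SD. The mean at 10 months is the lower one in all 6 groups for both members, and in controls the medians of let-7g are 7020 and 8262 CPM.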

How the data were processed

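The authors deposited estimated counts per miRBase stem-loop, not normalized and often fractional, and FPKM values. By the study's methods, adapter-clipped reads were aligned with STAR and counted with HTSeq. Those methods do not say how the fractional values arose, so whether the deposited counts came from that step alone is not known. The submitters' notes name CASAVA 1.8.2, and the sources used here give no other versions. Deposited FPKM values served only for levels between members.

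Expected counts were rounded and fitted in edgeR 4.0.16 (R 4.3.3, TMM, filterByExpr, robust quasi-likelihood test) with sex and the L field of the descriptions as covariates and Benjamini-Hochberg adjustment over all stem-loops. Libraries with a connectivity Z under -5 (variance-stabilized in DESeq2 1.42.0) were left out. All 10 members were reported in each of 16 comparisons. No 2 libraries of a group agreed within sampling noise. The fits were also run on simulated counts that held no L field, sex or LB differences, and the outcome is not given here. The labels do not say how the libraries of a group relate beyond separate mice.

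The members, lists and comparisons were chosen with earlier results of these data known. Names of other stem-loops, among them let-7 relatives, cluster neighbours and cell type markers, could not be matched, so those lists were not tested. Sequences and positions are RefSeq's (GRCm38.p6), hosts GENCODE's.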

Additional observations from a re-analysis of the deposited data

Results flagged for a closer look

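Among 120 sets of 8 libraries (10 members in 12 groups), 31 held a highest or lowest library whose gap to its nearest neighbour, divided by the range of the set, was above Dixon's 95% critical value. Chance passes it in about 1 in 20 sets, a nominal rate; the sets here share libraries, so 31 of 120 cannot be read against it directly. Of these values, 22 were in libraries with LB number 1, 15, 26 or 27 and 9 in others. All values are TMM-scaled CPM.

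Among libraries with those LB numbers, the Q92 male 1 at 6 months had 7357 CPM of let-7a-1, 606.6 of let-7a-2, 4909 of let-7c-2, 1632 of let-7e and 43.7 of let-7f-1, all low, and 7559 of let-7c-1, high. The Q20 male 2 at 6 months had 6514 of let-7a-1, 5418 of let-7c-2, 1591 of let-7e and 46.3 of let-7f-1, low, and 6168 of let-7c-1, high. The Q50 male 1 at 10 months had 5946 of let-7c-2, 1553 of let-7e and 74.7 of let-7f-1, low, and 4528 of let-7c-1, high. WT female 4 of the Q50 line at 6 months had 6803 of let-7a-1, 615.7 of let-7a-2 and 1600 of let-7e, low. WT male 4 of the Q20 line at 6 months had 537.9 of let-7a-2 and 1413 of let-7e, low. Let-7f-1 was low in the Q140 male 4 at 10 months (47.6) and in the Q20 female 4 at 10 months (42.5). Why these LB numbers go with let-7f-1 was not tested.

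In libraries with other LB numbers all such values were high. The Q20 female 1 at 10 months had 3426 of let-7b, 3919 of let-7d and 8152 of let-7i. Let-7d was also high in the Q92 female 3 at 10 months (4030, a library left out by the screen) and in WT female 4 of the Q20 line at 10 months (3795). Let-7a-2 was high in the Q140 male 4 at 6 months (1393) and in WT female 2 of the Q50 line at 10 months (1280). Let-7f-1 was high in the Q50 male 3 at 6 months (917.9), and let-7g in the Q50 male 4 at 10 months (7947).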

How the results depend on the processing

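Fits were repeated under other normalizations, filters, screens and covariates. The fits without LB numbers 1, 15, 26 and 27, with the co-varying set as a covariate, with the screen at -4.5 and within L field value 2 in the age comparisons were chosen after seeing the data. The planned covariate of epithelial or olfactory microRNAs was not run, because those names could not be matched. No member was called in any genotype, line or sex comparison under any of these, except that with library totals in place of TMM 1 member, let-7i, passed in the combined CAG slope (-0.06, FDR 0.027). In a separate fit, with TMM and without Q140, the combined slope of let-7i was 0.020, of the other sign. Leaving out 1 Q50, Q92 or Q140 library in their comparisons with controls gave 0 members called in all 42 fits; control libraries, and libraries in the other comparisons, were not left out singly. Replicate numbers name different mice. Of same-numbered pairs across groups of an age, 106 of 240 had a correlation over 0.1. The median was 0.036, against 0.009 for pairs of other numbers. Whether such mice share more than a number was not tested. With the replicate block the counts were the same in all 16 comparisons, 2 members for age in controls and 3 in Q50, Q92 and Q140.

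For age in controls, the count was 1 member in place of 2 with library totals, with no filter, with a mean of 10 CPM, with shared strands summed and without the 4 LB numbers, and let-7g was called in each. For age in Q50, Q92 and Q140 the count was 5 with DESeq2 size factors, with no filter and with the DESeq2 Wald test, and 6 without the L field, in place of 3. With library totals let-7b there had a log2 difference of 0.0026. The shares over all stem-loops in these alternative age fits are not given here. The library total scaling moved the median of all stem-loops by 0.07 and 0.09 in the age comparisons. Of 160 member values, 78 took the other sign under at least 1 alternative. None of the sign-changed values passed the test, and none of their main values did. Passing under a further alternative was not counted. The combined CAG slope of let-7i, for example, changed sign without Q140 and passed with library totals. The spread of the 11 libraries limits let-7f-1 and let-7c-1 unless they are left out.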
